A study of Homo sapiens with 12 samples.

Results

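The genes described here are 9 dual-specificity phosphatases grouped for their action on the stress-activated MAP kinases p38 and JNK: DUSP1, DUSP2, DUSP7, DUSP8, DUSP9, DUSP10, DUSP14, DUSP16 and DUSP22. They were chosen by symbol from a table of 56609 gene symbols, and all 9 were found and passed the filter on low counts, among 21698 genes tested. RNA was sequenced from A375, an established human malignant melanoma line that carries mutant BRAF, in 4 groups of 3 libraries. Wild-type cells or cells whose MAPKAPK2 gene had been knocked out with CRISPR/Cas9 were kept for 48 h in 500 nM JQ1 or in DMSO. MAPKAPK2 encodes MK2, a kinase that p38 activates, and JQ1 displaces BET bromodomain proteins from acetylated chromatin. The series asks how loss of MAPKAPK2 raises resistance to such inhibitors. The guide, and whether the knockout cells are 1 clone or a pool, are not given in the sources used here, and nothing says that replicates were separate cultures, so p-values measure the spread between these libraries.

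Dual-specificity phosphatases inactivate MAP kinases by removing phosphate from both the threonine and the tyrosine of the activation loop. Most are themselves transcribed in response to the kinases they switch off, which makes them feedback inhibitors. DUSP1 and DUSP2 are inducible nuclear enzymes, DUSP7 and DUSP9 are cytoplasmic, and DUSP8, DUSP10 and DUSP16 prefer JNK and p38. DUSP14 and DUSP22 are small enzymes that lack the kinase-binding domain of the others, and DUSP22 has been linked to activation of JNK. DUSP7 and DUSP9 are known mainly for acting on ERK, so the name of the set describes them only loosely. In melanoma with mutant BRAF, ERK signalling is constitutively high and the ERK-directed relatives DUSP4 and DUSP6 are strongly expressed.

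Among the 9 genes, DUSP9, DUSP2 and DUSP16 fell together in JQ1, and the 250 bases before their annotated starts are shown because they could be compared with those of DUSP1, a gene of the same family that did not fall. The sequences are RefSeq's, build GRCh38.p14, read 5′ to 3′ on the gene's strand, and DUSP9 has an entry for each of 2 starts. Searched on both strands were the cyclic AMP response element TGACGTCA and its shorter core TGACG, the AP-1 site TGANTCA, the E-box CACGTG, the TATA box TATAAA, the CCAAT box CCAAT, the GC box GGGCGG, the ETS site CCGGAAG and the CArG box of serum response factor. Capitals mark matches to the cyclic AMP response element, AP-1 site, E-box, TATA box, CCAAT box and CArG box, and the common GC box and the shorter core are left in lower case.
DUSP9 upstream start, chrX:153642191-153642440, plus strand: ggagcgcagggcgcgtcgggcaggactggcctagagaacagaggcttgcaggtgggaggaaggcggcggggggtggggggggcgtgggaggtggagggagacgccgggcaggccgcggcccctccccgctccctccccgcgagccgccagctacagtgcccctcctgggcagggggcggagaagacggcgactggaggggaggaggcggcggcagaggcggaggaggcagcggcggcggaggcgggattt
DUSP9 downstream start, chrX:153646953-153647202, plus strand: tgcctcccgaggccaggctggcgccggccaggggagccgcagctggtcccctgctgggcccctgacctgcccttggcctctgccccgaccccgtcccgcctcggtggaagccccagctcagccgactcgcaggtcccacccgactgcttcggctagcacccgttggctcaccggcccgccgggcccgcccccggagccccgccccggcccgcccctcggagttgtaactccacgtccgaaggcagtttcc
DUSP2, chr2:96145441-96145690, minus strand: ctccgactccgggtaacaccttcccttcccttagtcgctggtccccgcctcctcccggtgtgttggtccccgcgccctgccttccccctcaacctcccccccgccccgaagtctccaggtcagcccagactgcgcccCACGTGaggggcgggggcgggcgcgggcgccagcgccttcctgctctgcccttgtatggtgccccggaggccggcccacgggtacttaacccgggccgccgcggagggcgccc
DUSP16, chr12:12562864-12563113, minus strand: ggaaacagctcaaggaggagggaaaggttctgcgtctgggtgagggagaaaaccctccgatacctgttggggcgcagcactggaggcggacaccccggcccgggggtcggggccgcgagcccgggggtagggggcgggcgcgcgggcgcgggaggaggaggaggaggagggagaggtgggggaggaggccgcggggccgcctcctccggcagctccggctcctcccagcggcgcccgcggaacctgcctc
DUSP1, chr5:172771196-172771445, minus strand: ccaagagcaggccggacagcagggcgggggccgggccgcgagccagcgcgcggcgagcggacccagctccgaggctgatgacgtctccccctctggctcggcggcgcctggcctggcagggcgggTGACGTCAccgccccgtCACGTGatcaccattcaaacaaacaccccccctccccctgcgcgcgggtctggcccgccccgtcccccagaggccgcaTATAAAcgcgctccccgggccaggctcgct
The DUSP1 window held a cyclic AMP response element whose first base lay 125 bases before the start, an E-box at 108 and a TATA box at 30. The DUSP2 window held an E-box at 113. Both DUSP9 windows and the DUSP16 window had no match in capitals. A GC box was found in each of these windows, among them DUSP9 (77 bases before the upstream start and 66, 52 and 42 before the downstream one), DUSP2 (150, 105 and 99) and DUSP16 (119), and the shorter core only in that of DUSP1, at 172, 125, 122 and 111 bases, so that it overlapped the full element and the E-box. Over 34943 RefSeq windows of 250 bases, 42.5% held the GC box, 21.2% the shorter core, 1.63% the cyclic AMP response element, 6.59% the AP-1 site, 6.32% the E-box, 10.8% the TATA box, 32% the CCAAT box, 8.48% the ETS site and 1.16% the CArG box. These are matches of letters and describe no binding. Of the motifs searched, the 3 genes that fell had only the GC box in common, which the DUSP1 window held as well. The windows of DUSP7, DUSP14 and DUSP22, which were not called lower with JQ1, held the GC box and none of the other motifs.

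The libraries held between 25316899 and 34594295 estimated counts. The targeted gene, MAPKAPK2, was at 88.8, 87.9 and 92.1 counts per 1000000 (CPM) in wild-type DMSO and at 11.1, 13.2 and 13 CPM in knockout DMSO. In JQ1 it was at 119, 120 and 112 CPM in wild type and at 14.9, 12.6 and 15.7 CPM in knockout, so the labels and the transcript matched in the 12 libraries. Of the melanoma markers, SOX10 (437 ± 7.38 CPM, SD, n = 3), S100A1 (45.4 ± 3.51), MITF (43.1 ± 1.01) and S100B (29.3 ± 1.27) were expressed in wild-type DMSO. MLANA (0.78 ± 0.207) and PMEL (0.513 ± 0.201) were low there, and the pigment genes TYR, DCT and TYRP1 were too low to be tested. Of the epithelial markers, the cadherin gene CDH1 was at 0 in all libraries. Only KRT14 of that list could be tested (1.86 ± 0.344 CPM in wild-type DMSO). The summed CPM of the 9 melanoma markers ran from 542 to 565 in DMSO and 611 to 704 with JQ1 in wild type. In knockout it ran from 511 to 590 and from 587 to 803, and most of this sum was SOX10. The sum of the 5 immune markers reached at most 3.85, that of the 4 epithelial markers 2.14 and that of the 3 endothelial markers 2.35. Replicate 3 of knockout JQ1 stood apart. Its chi-square per degree of freedom against its replicates was 23.8 and 25.1, against 3.21 to 7.05 in the other 10 replicate pairs, and its share of counts in 4 abundant noncoding RNAs was the highest (14.6%; the lowest library had 9.42%). Where leaving it out changed the call of one of the 9 genes or moved a called value by over 1.5 times, the value without it is given, and the pathway lists were also tested without it, an alternative chosen after the data were seen.

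DUSP14 was the most abundant of the 9 transcripts in every group and DUSP8 the least. Levels of different genes were compared as CPM per kilobase of the longest coding transcript in GENCODE release 29, which is approximate because the authors' annotation is not given in the sources used here. On this scale DUSP14 was at 24.2 ± 0.595 in wild-type DMSO, followed by DUSP10 (11 ± 0.216), DUSP7 (7.75 ± 0.519), DUSP1 (6.44 ± 0.483), DUSP16 (5.05 ± 0.36), DUSP9 (3.71 ± 0.247), DUSP22 (2.32 ± 0.191), DUSP2 (1.66 ± 0.162) and DUSP8 (0.1 ± 0.0296; all SD, n = 3). DUSP14 alone made up 38.9% of the summed length-scaled level of the 9 genes there and 47% in knockout JQ1. DUSP9 went from the sixth place in wild-type DMSO to the eighth in the other 3 groups, and its share of the sum was 5.97% in wild-type DMSO and 0.887% in wild-type JQ1, against 2.77% and 0.365% in the same treatments of the knockout. In knockout DMSO the levels of DUSP2 (1.76 ± 0.149) and DUSP9 (1.7 ± 0.31) differed by less than the SD of either, and those of DUSP1 (8.18 ± 0.644) and DUSP7 (8.89 ± 1.65) in knockout JQ1 by less than the SD of DUSP7.

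**Figure D1:**
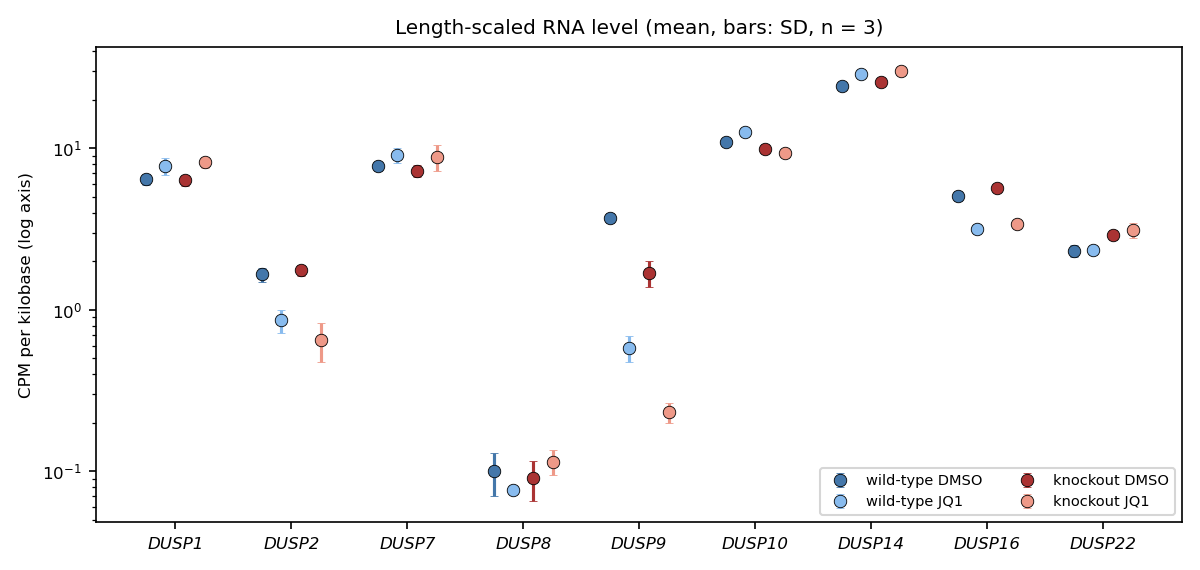
Length-scaled RNA level of each phosphatase gene (vertical log axis, CPM per kilobase of the longest coding transcript) in the 4 groups, with points at the mean of 3 libraries and bars of 1 SD. DUSP14 is highest in all 4 groups, and DUSP9 spans the widest range, from 3.71 in wild-type DMSO to 0.233 in knockout JQ1.

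JQ1 lowered DUSP9 more than any other gene of the set, in both genotypes, and lowered DUSP2 and DUSP16 by less. In wild-type cells 5 of the 9 genes passed an adjusted p of 0.05 by the quasi-likelihood test of edgeR, with Benjamini-Hochberg adjustment over all tested genes, 2 higher (DUSP10 and DUSP14) and 3 lower. Over all tested genes 33.1% were called in this comparison, 16.9% higher and 16.2% lower. In knockout cells 5 of 9 were called, 2 higher (DUSP1 and DUSP14) and the same 3 lower, against 34.4% of all tested genes, 16.7% higher and 17.8% lower. Libraries of both treatments did not overlap for 5 of 9 genes in wild type and 6 of 9 in knockout, as for 50.4% and 42.3% of all tested genes. The median log2 fold change of the 9 genes was 0.01 in wild type and 0.09 in knockout, beside -0.03 and -0.00 over all tested genes, so the set did not move one way. In these whole-culture libraries, fewer cells expressing a gene and less RNA per cell cannot be told apart.

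DUSP9, on the X chromosome (GRCh38, chrX:153642492-153651326, plus strand, GENCODE release 29), encodes a cytoplasmic phosphatase that acts mainly on ERK and also on p38. It was at 8.7, 8.68 and 9.73 CPM in wild-type DMSO and at 1.48, 1.63 and 1.12 CPM in wild-type JQ1. In knockout it was at 3.3, 4.33 and 4.77 CPM in DMSO and at 0.647, 0.487 and 0.57 CPM in JQ1. No group overlapped another, and the order was wild-type DMSO, knockout DMSO, wild-type JQ1 and knockout JQ1 from high to low. With JQ1 the log2 fold change was -2.69 (SE 0.17, adjusted p 3.1e-08) in wild type and -2.85 (SE 0.21, adjusted p 9.38e-08) in knockout, which left 15.6% and 13.7% of the DMSO level. Only 126 of the 21698 tested genes had a more negative fitted change in wild type and 152 in knockout. The counts behind the lowest group were 17, 12 and 18, so counting error weighs most on this group.

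DUSP2, an inducible nuclear phosphatase first described in blood cells, was low throughout, with 21 to 102 counts per library. It was at 2.53, 3.08 and 2.8 CPM in wild-type DMSO and at 1.6, 1.19 and 1.57 CPM in wild-type JQ1. In knockout it was at 2.73, 3.23 and 2.98 CPM in DMSO and at 0.8, 1.1 and 1.39 CPM in JQ1. All JQ1 libraries were below all DMSO libraries of either genotype. The log2 fold change was -0.94 (SE 0.19, adjusted p 0.00147) in wild type and -1.42 (SE 0.20, adjusted p 6.04e-05) in knockout. DUSP16, which prefers JNK and p38, was at 24.6, 28.4 and 26.7 CPM in wild-type DMSO and at 15.5, 17 and 17.7 CPM in wild-type JQ1. Its knockout libraries were at 30.4, 28.2 and 31.6 CPM in DMSO and at 17.3, 18.2 and 18.2 CPM in JQ1, and again every JQ1 library was below every DMSO library. DUSP16 fell by 0.67 on the log2 scale in wild type (SE 0.08, adjusted p 1.63e-05) and by 0.75 in knockout (SE 0.08, adjusted p 4.69e-06). The calls of DUSP2, DUSP9 and DUSP16 in both genotypes held in each of the 19 alternative analyses.

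The rises were small. DUSP14 went from 52.6, 52.7 and 54.9 CPM to 63.1, 62.7 and 64.5 CPM with JQ1 in wild type, and from 56.8, 54.8 and 58 CPM to 69.2, 64.2 and 65.4 CPM in knockout. The groups did not overlap in either genotype, and the log2 fold change was 0.25 (SE 0.05, adjusted p 0.00256) in wild type and 0.23 (SE 0.05, adjusted p 0.00426) in knockout. Among the 19 alternative analyses the DUSP14 call was lost in 1 in wild type and in 2 in knockout, none of them leaving out a library. DUSP1, an immediate-early gene whose mRNA carries AU-rich elements of the kind regulated through p38 and MK2, was at 12.9, 12.1 and 14 CPM in wild-type DMSO and at 17.7, 15.3 and 14 CPM in wild-type JQ1. Its knockout libraries were at 12.8, 11.8 and 13.7 CPM in DMSO and at 15.5, 16.1 and 18 CPM in JQ1. The groups touched in wild type (log2 fold change 0.27, SE 0.10, adjusted p 0.0636) and were separate in knockout, where DUSP1 rose (0.37, SE 0.10, adjusted p 0.0127). The DUSP1 call in knockout was lost without knockout DMSO replicate 2 (adjusted p 0.0625), while DUSP1 passed in wild type without knockout JQ1 replicate 3 (0.0387) or wild-type JQ1 replicate 3 (0.0303) and with only the groups compared in the fit (0.0386).

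These rises depended on the scaling of the libraries. Scaling by library totals instead of TMM moved the median over all genes by -0.13 on the log2 scale in wild type and by -0.12 in knockout. The split of all calls went from 3665 higher and 3522 lower to 2298 higher and 5368 lower in wild type, and from 3616 and 3856 to 2409 and 5250 in knockout. With it no gene of the set was called higher. DUSP14 was then at 0.12 in wild type (adjusted p 0.111) and 0.11 in knockout (0.132), and DUSP1 at 0.25 in knockout (0.0609). DUSP10 lost its rise in wild type and was called lower in knockout (-0.21, adjusted p 0.0247).

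DUSP7, DUSP8 and DUSP22 were not called for JQ1. DUSP7, a cytoplasmic phosphatase of ERK, ran from 23.9 to 27.2 CPM in wild-type DMSO and from 26.9 to 32.9 CPM in wild-type JQ1, and from 22.3 to 26.2 and from 26.1 to 36.1 CPM in knockout, with fitted changes of 0.24 (adjusted p 0.141) and 0.30 (adjusted p 0.0679). Its highest value, 36.1 CPM, was in knockout JQ1 replicate 3, the library that stood apart. Without that library the change in knockout was 0.13 (adjusted p 0.33), and the unaltered change in wild type passed (0.0326), as it did with only the groups compared (0.0187). In knockout DUSP7 passed without knockout JQ1 replicate 1 (0.39, adjusted p 0.029) or replicate 2 (0.37, adjusted p 0.0474) and without the low-count filter (0.0208). DUSP22 changed by 0.01 (adjusted p 0.942) in wild type and 0.09 (adjusted p 0.538) in knockout. DUSP8 had only 9 to 20 counts per library, and its intervals were wide (95% interval -1.10 to 0.36 in wild type and -0.37 to 1.07 in knockout), so a change of moderate size was not detectable at this depth. DUSP8 also has pseudogene copies with counts of their own, among them DUSP8P5, picked after its values were seen, at 1.07 ± 0.336 CPM in wild-type DMSO (SD, n = 3), above DUSP8 itself (0.448 ± 0.132), so its level is uncertain.

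**Figure D2:**
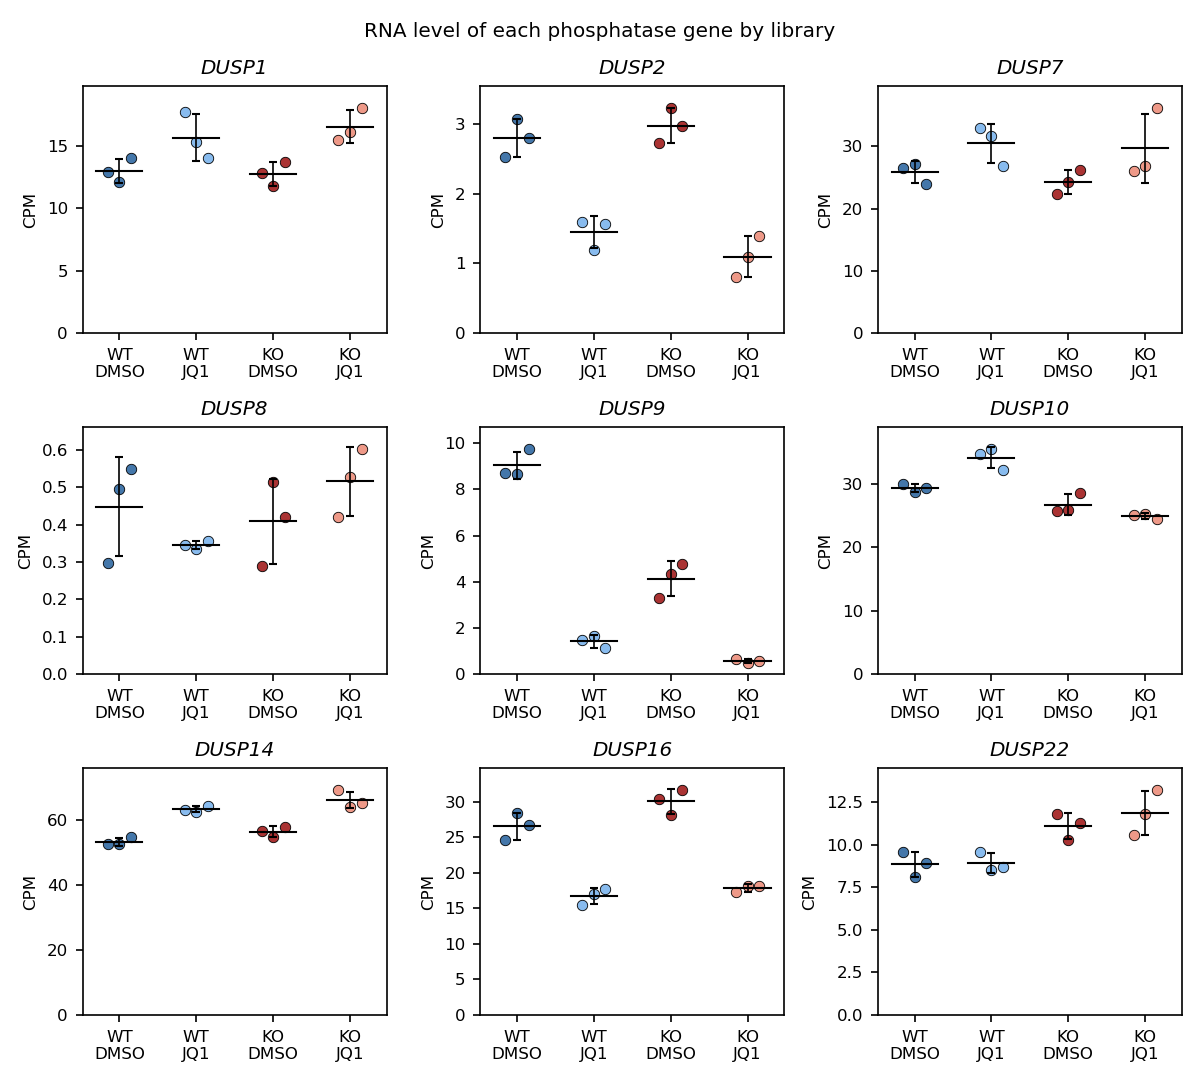
RNA level of each of the 9 phosphatase genes (vertical axes, CPM, from 0) in the 12 libraries by group, wild type (WT) or MAPKAPK2 knockout (KO) in DMSO or JQ1, with a line at the mean of 3 libraries and bars of 1 SD. DUSP9, DUSP2 and DUSP16 are lower in every JQ1 library than in the DMSO libraries of the same genotype. For DUSP10 the genotypes lie farther apart in JQ1 than in DMSO.

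DUSP9 was lower in the knockout cells than in wild type without the drug, and no other gene of the set was called. Loss of the kinase and another difference between the knockout and wild-type cells cannot be told apart here. By the edgeR test 1 of 9 genes passed in DMSO, lower, beside 7.92% of all tested genes, 3.47% higher and 4.44% lower, and 2 passed without knockout JQ1 replicate 3, DUSP22 being added, where 11.9% of all tested genes did. The genotypes did not overlap in DMSO for 3 of 9 genes, beside 29.6% of all tested genes. DUSP9 in knockout was at 45.8% of the wild-type level (log2 fold change -1.13, SE 0.15, adjusted p 0.000221), and the groups did not overlap. Comparing knockout with wild type under JQ1, 3 of 9 passed, 1 higher (DUSP22) and 2 lower (DUSP9 and DUSP10), beside 8.57% of all tested genes, 3.01% higher and 5.56% lower, and the genotypes did not overlap for 4 of 9, beside 23.1%. DUSP9 was at 40.3% of the wild-type level there (-1.29, SE 0.23, adjusted p 0.00215). Its call held in all 19 alternative analyses of either comparison, with adjusted p of at most 0.00249 in DMSO and 0.0194 in JQ1. The mean of DUSP9 in knockout JQ1 was 6.29% of that in wild-type DMSO. Of the 6 tested melanoma markers, 1 was higher and 1 lower in knockout in each treatment. S100B, which encodes a calcium-binding protein, was at 0.45 in DMSO (adjusted p 0.000403) and at 0.41 in JQ1 (adjusted p 0.000756). MITF, the melanocyte transcription factor gene, was at -0.58 in DMSO (adjusted p 0.000323) and at -0.37 in JQ1 (adjusted p 0.0102). Their part in the DUSP9 difference was not tested. The JQ1 comparison in wild type and the knockout comparison in DMSO share the wild-type DMSO libraries, so these values are given side by side only.

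DUSP22 was at 9.57, 8.11 and 8.91 CPM in wild-type DMSO and at 11.8, 10.3 and 11.3 CPM in knockout DMSO. In JQ1 it was at 9.61, 8.54 and 8.7 CPM in wild type and at 10.6, 11.8 and 13.2 CPM in knockout. Knockout libraries were above wild-type libraries in each treatment, with a log2 fold change of 0.33 in DMSO (SE 0.11, adjusted p 0.076) and of 0.41 in JQ1 (SE 0.11, adjusted p 0.0257). The call in JQ1 was lost on leaving out, among the JQ1 libraries, knockout replicate 2 (0.0558) or 3 (0.0712) or wild-type replicate 2 (0.102) or 3 (0.0882), with only the groups compared in the fit (0.0814) and with limma on the authors' normalized signal (0.0596). In DMSO it passed with DESeq2 (0.0445), with only the groups compared (0.0494) and without knockout JQ1 replicate 3 (0.0351). The 95% interval of the difference, 0.10 to 0.56 in DMSO and 0.18 to 0.64 in JQ1, lay above 0 before adjustment.

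DUSP10, which prefers JNK and p38, was called between the genotypes under the drug and not in DMSO, and its test of interaction did not pass (adjusted p 0.325). It was at 29.9, 28.7 and 29.4 CPM in wild-type DMSO and at 34.7, 35.4 and 32.2 CPM in wild-type JQ1. In knockout it was at 25.7, 25.8 and 28.6 CPM in DMSO and at 25.1, 25.2 and 24.4 CPM in JQ1. It rose with JQ1 in wild type (log2 fold change 0.22, SE 0.07, adjusted p 0.0211) and changed by -0.10 in knockout (SE 0.07, adjusted p 0.295). Against wild type, knockout was at -0.14 in DMSO (SE 0.07, adjusted p 0.283) and at -0.45 in JQ1 (SE 0.07, adjusted p 0.000523), and the groups did not overlap in either treatment. The rise in wild type was lost on leaving out, among the wild-type libraries, DMSO replicate 2 (0.0809) or 3 (0.0607) or JQ1 replicate 1 (0.0713) or 2 (0.0876), with library totals (0.09, adjusted p 0.343) and without the low-count filter (0.0711). The difference between genotypes under JQ1 held in all 19 alternative analyses (-0.49 to -0.42).

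**Figure D3:**
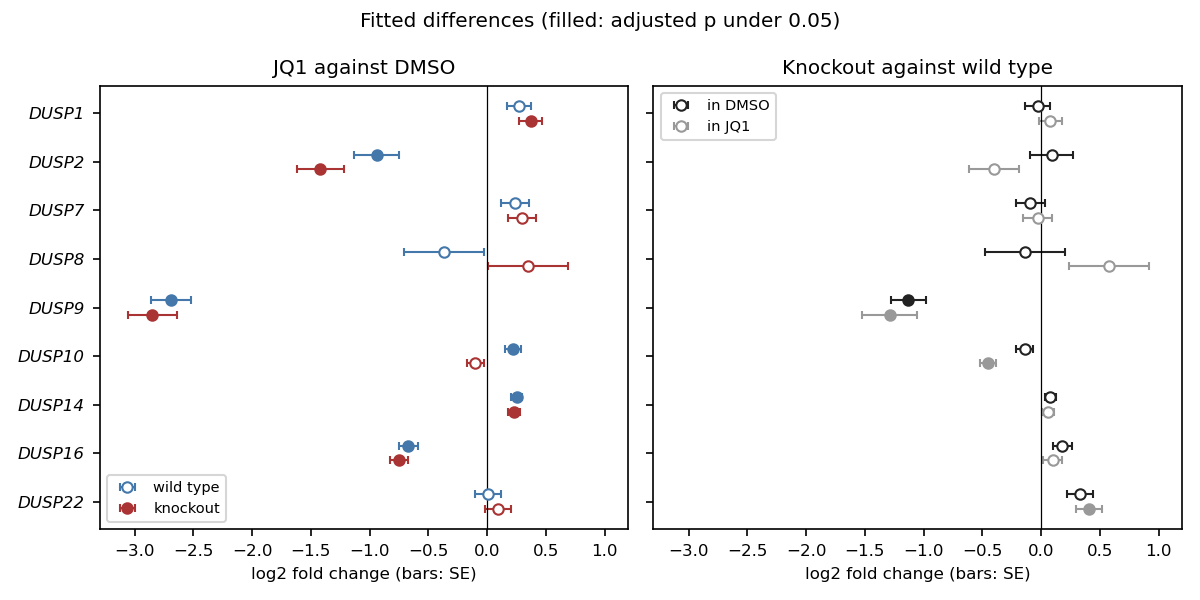
Fitted log2 fold changes of the 9 phosphatase genes (horizontal axes) for JQ1 against DMSO, left, in wild type and knockout, and for knockout against wild type, right, in DMSO and JQ1. Bars are 1 SE and filled points passed an adjusted p of 0.05. DUSP9 lies farthest below 0 in all 4 comparisons, at -2.69 and -2.85 with JQ1 and at -1.13 and -1.29 with the knockout.

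DUSP10 lies on the long arm of chromosome 1 (GRCh38, chr1:221701424-221742176, minus strand, GENCODE release 29), distal to MAPKAPK2 and 85 tested genes away in gene order. Many of the other genes of that stretch had negative fitted changes in knockout, 276 of 300 tested in DMSO and 247 in JQ1. Of these 300 genes distal to MAPKAPK2, 129 (43%) were called lower and 0 higher in DMSO by the edgeR test, and 138 (46%) lower and 1 higher in JQ1, with median log2 fold changes of -0.39 and -0.37. On the part of the chromosome proximal to MAPKAPK2, 4.32% and 5.36% of 1830 tested genes were called lower. Among the 10 tested genes on either side of DUSP10, 5 of 20 were called lower in DMSO and 7 in JQ1, and none higher. MARC2, toward MAPKAPK2, was at -1.19 and -1.89, and on the far side TAF1A was at -0.47 in DMSO (adjusted p 0.014) and MIA3 at -0.67 in JQ1 (adjusted p 4.75e-05). In DMSO 250 of the 300 distal genes had a more negative fitted change than DUSP10, and in JQ1 113 did. An effect of the kinase's loss on DUSP10 and a lower level of this whole stretch cannot be told apart with these libraries.

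**Figure D4:**
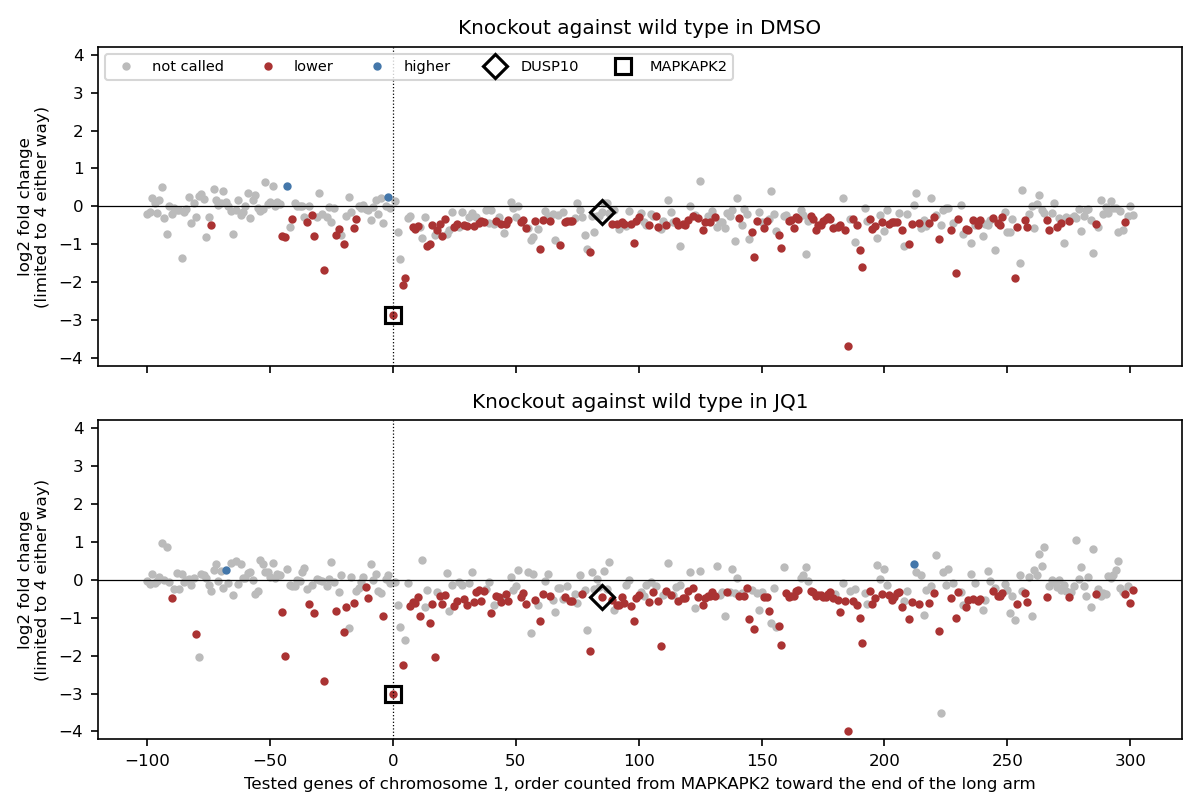
Log2 fold change of knockout against wild type (vertical axes, limited to 4 either way) for tested genes of chromosome 1 in gene order counted from MAPKAPK2 (horizontal axis), in DMSO and in JQ1. Called genes are coloured, and DUSP10, 85 genes distal, lies near 0 in DMSO and within the band of lower genes in JQ1.

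Whether the response to JQ1 differed between genotypes was tested directly as an interaction. By the edgeR test 0 of the 9 genes passed, beside 0.134% of all tested genes, and the count was also 0 with DESeq2, beside 0.363%, and with limma, beside 0.124%. Over all genes the number called went from 29 to 88 without knockout JQ1 replicate 3, 154 with DESeq2 and 236 without the low-count filter. At an unadjusted p under 0.05 there was 1 gene of the 9, beside 8.37% of all tested genes. It was DUSP10, whose response was lower in knockout by 0.31 on the log2 scale (95% interval -0.52 to -0.11, adjusted p 0.325). For DUSP9 the difference between responses was -0.16 (95% interval -0.74 to 0.42, adjusted p 0.926), and for DUSP2 it was -0.49 (95% interval -1.08 to 0.11, adjusted p 0.667). The narrowest interval was that of DUSP14 (-0.18 to 0.15), and the widest that of DUSP8 (-0.31 to 1.75). The interval of DUSP9 allows a moderate difference between the responses in either direction.

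The genes whose profile over the 12 libraries lay nearest to that of DUSP9 were PRSS33, ANO1 and OAS2. The measure was the root mean square difference of centred log2 CPM over the 11251 genes searched (means of 5 CPM or more), and it was 0.22, 0.28 and 0.28. PRSS33, a serine protease gene, was at -2.60 and -2.83 with JQ1 in wild type and knockout, and at -0.81 and -1.03 with the knockout in DMSO and JQ1. ANO1, a calcium-activated chloride channel gene, was at -2.63 and -2.95 with JQ1 and at -0.68 with the knockout in DMSO. OAS2, an interferon-induced enzyme gene, was at -2.40, -3.01, -0.62 and -1.23. Among the nearest to DUSP2 were DNAJC22 and EEF1A2, at 0.16 and 0.19. Both had negative fitted changes with JQ1, at -1.19 and -0.99 in wild type. All these genes were picked for likeness over the same 12 libraries, so changes similar to those of DUSP9 or DUSP2 follow from the choice.

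The 3 ERK-directed relatives outside the set were higher with the drug, unlike DUSP9, which is also known mainly for acting on ERK. DUSP4, DUSP5 and DUSP6, feedback inhibitors induced by ERK signalling, were all 3 higher with JQ1 in both genotypes, with log2 fold changes of 0.54, 0.60 and 0.27 in wild type and of 0.94, 0.66 and 0.30 in knockout (adjusted p from 1.08e-07 to 0.000657). Over all tested genes 16.9% were called higher with JQ1 in wild type and 16.7% in knockout. DUSP4 was lower in knockout in DMSO (-0.41, adjusted p 0.0014) and at -0.01 in JQ1 (0.96). DUSP6 was higher in knockout in DMSO (0.20, adjusted p 0.0165) and in JQ1 (0.23, adjusted p 0.00645). DUSP5 was called with the knockout in neither treatment. Without knockout JQ1 replicate 3 the edgeR test called DUSP5 lower in knockout in DMSO (-0.25, adjusted p 0.0369) and in JQ1 (-0.31, adjusted p 0.0207). Of all tested genes 11.9% and 10.5% were called in those comparisons without that library, and 7.92% and 8.57% with it. Among 7 other phosphatases that act on MAP kinases, 5 could be tested. With JQ1, 2 were called lower in wild type and 1 in knockout, beside 16.2% and 17.8% of all tested genes. With the knockout, 1 was called lower in DMSO and 0 in JQ1, beside 4.44% and 5.56%. PTPRR, a tyrosine phosphatase of ERK and p38, fell in both genotypes, from 44, 41 and 32 counts to 3, 0 and 7 in wild type (-3.44, adjusted p 7.39e-05) and from 67, 56 and 40 counts to 7, 9 and 16 in knockout (-2.23, adjusted p 0.000376). DUSP3, a small phosphatase of ERK and JNK, was lower with JQ1 in wild type (-0.20, adjusted p 0.0494) and in knockout in DMSO (-0.35, adjusted p 0.00773). Without knockout JQ1 replicate 3 DUSP3 was also lower in knockout than in wild type under JQ1 (-0.31, adjusted p 0.0114).

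Of the 7 genes for the kinases p38 and JNK, on which these phosphatases act, 0 passed the edgeR test with JQ1 in wild type (3 at an unadjusted p under 0.05) and 3 in knockout, beside 33.1% and 34.4% of all tested genes. With the knockout 0 passed in either treatment (0 at an unadjusted p under 0.05), beside 7.92% and 8.57%. Without knockout JQ1 replicate 3 the counts with JQ1 were 3 and 3, beside 38% and 33.6% of all tested genes. The 3 calls in knockout were MAPK8 (0.40, adjusted p 0.038), MAPK11 (-0.65, adjusted p 0.00815) and MAPK10 (-0.85, adjusted p 0.0285). Of 22 tested upstream kinases and adaptors, 5 were higher and 2 lower with JQ1 in wild type, and 4 higher and 6 lower in knockout, and the 7 called in wild type are close to the share over all genes. Without knockout JQ1 replicate 3, 9 were higher and 2 lower with JQ1 in wild type, beside 38% of all tested genes called. GADD45B, a stress-induced activator of MAP3K4, rose by 1.24 and 1.23, and MAP3K5, a kinase activated by oxidative stress, was at -0.65 in wild type and was lower in knockout too. With the knockout, 1 was lower in DMSO, GADD45B (-0.53, adjusted p 0.0175), and 5 were lower in JQ1, among them MAP2K6, an activator of p38 (-0.60, adjusted p 0.00223), and GADD45B (-0.54, adjusted p 0.00743). Without that library 3 were lower in JQ1, beside 10.5% of all tested genes called in either direction. Both of these genes passed (adjusted p 0.00292 for MAP2K6 and 0.00286 for GADD45B).

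Of 14 tested downstream kinases and targets, 6 were higher and 4 lower with JQ1 in wild type and 5 higher and 5 lower in knockout. Of all tested genes 33.1% and 34.4% were called in these comparisons. JUN, the AP-1 subunit that JNK phosphorylates, rose by 1.08 (adjusted p 6.47e-05) and by 1.53 (adjusted p 2.89e-06). MAPKAPK3, the closest relative of MAPKAPK2, was at -0.47 and -0.89, and HSPB1, a heat-shock protein gene and MK2 substrate, at -0.43 and -0.89. With the knockout 2 were lower in DMSO, MEF2C (-0.69) and MEF2A (-0.45), which encode transcription factors that p38 phosphorylates. In JQ1 5 were lower, among them DDIT3 (-0.75, adjusted p 0.00108). Of all tested genes 4.44% were lower with the knockout in DMSO and 5.56% in JQ1. Without knockout JQ1 replicate 3, 3 were lower and 1 higher in DMSO and 7 lower in JQ1, beside 11.9% and 10.5% of all tested genes called. Over these 5 pathway lists together, 51 genes were tested. With JQ1, 43.1% were called in wild type and 52.9% in knockout, beside the 33.1% and 34.4% of all genes. With the knockout, 11.8% were called in DMSO and 21.6% in JQ1, beside 7.92% and 8.57%. The interaction called 0 by the edgeR test, with 10 at an unadjusted p under 0.05, beside 0.134% and 8.37%. Without knockout JQ1 replicate 3, 52 genes were tested, and 55.8% were called with JQ1 in each genotype, 17.3% with the knockout in DMSO and 25% in JQ1. Over all tested genes the shares without that library were 38% and 33.6% with JQ1 in wild type and knockout. They were 11.9% and 10.5% with the knockout in DMSO and JQ1, and 0.395% for the interaction. The interaction then called 1, HSPB1, which was at -0.46 with all libraries (adjusted p 0.391) and at -0.64 without that one (adjusted p 0.00536).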

How the data were processed

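Per the submitters' processing notes, Trim Galore, cutadapt, FastQC, MultiQC, kallisto and DESeq2 and the build GRCh38.p10 were used, with no roles given. Per the labels' protocols, libraries were directional and made from RNA depleted of ribosomal RNA, and whether counting used the strand is not given in the sources used here. The authors deposited estimated counts per gene symbol, which need not be whole, and a normalized signal, the rounded count divided by a factor per gene and library. Columns were assigned to samples by name, and groups came from the titles and the treatment labels; the titles say untreated where the treatment label says DMSO.

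Testing was planned for counts. The estimated counts were rounded, filtered with edgeR's filterByExpr (21698 of 56609 symbols kept), scaled by TMM (factors 0.926 to 1.06) and fitted over all 12 libraries with a term per group, by quasi-likelihood (edgeR 4.0.16, limma 3.58.1, DESeq2 1.42.0, R 4.3.3). Adjustment was by the Benjamini-Hochberg method over the genes tested, with a threshold of 0.05. The SE was derived from the fold change and its F statistic, and 95% intervals use the fit's degrees of freedom. CPM are per 1000000 of the TMM-scaled library. The test was tested on simulated data.

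The genes named were the 9 members, MAPKAPK2, up to 3 called genes with the smallest adjusted p per pathway list and comparison, the nearest profiles of members that changed at least 2-fold, and neighbours of DUSP10. 1 gene named by this rule is not reported here. Members and lists were chosen with earlier results of these data known. The alternatives were DESeq2's size factors, library totals, DESeq2's test, no low-count filter, limma on log2 of the normalized signal with a pseudocount of 1, only the groups compared, a replicate block, and leaving out each library.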

Additional observations from a re-analysis of the deposited data

How the results depend on the processing

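The 50 results (the count of called members in 5 comparisons and the fold change of each member in each) were recomputed in 19 alternative analyses, 12 of which leave out a library. The calls of DUSP2, DUSP9 and DUSP16 with JQ1, of DUSP9 with the knockout and of DUSP10 with the knockout under JQ1 held in all of them. Of 845 recomputed fold changes, 800 kept their direction and side of the threshold, 17 lost a call, 12 gained one and 16 changed sign. The count of called members with JQ1 in wild type was 3 in place of 5 with library totals. For the knockout in DMSO it was 2 in place of 1 with DESeq2 and with only the groups compared, and also 2 without knockout JQ1 replicate 3. Leaving out each library gave 4 to 7 called members with JQ1 in wild type, 4 to 6 with JQ1 in knockout, 1 to 2 with the knockout in DMSO, 2 to 3 with the knockout in JQ1, and 0 for the interaction in each case. All sign changes were in members that were not called. With library totals DUSP22 changed by -0.12 with JQ1 in wild type and by -0.02 in knockout. With a library left out, DUSP22 ran from -0.04 to 0.08 with JQ1 in wild type, DUSP1 from -0.07 to 0.04 and DUSP8 from -0.35 to 0.07 with the knockout in DMSO, and DUSP7 from -0.20 to 0.05 with the knockout in JQ1. For the interaction DUSP7 ran from -0.11 to 0.15, DUSP14 from -0.05 to -0.00 and DUSP22 from -0.00 to 0.16. The replicate numbers of the titles did not pair the libraries: same-numbered libraries of different groups had correlations of their deviations from -0.115 to 0.0786 in 18 pairs, 0 of them over 0.1, and a library's best match carried its own number in 3 of 36 cases. With the replicate block the counts of called members were 5, 5, 1, 3 and 0 in the 5 comparisons, as without it. Depth limits DUSP8, with 9 to 20 counts per library, and DUSP9 in knockout JQ1, with 12 to 18. Without knockout JQ1 replicate 3 the pathway genes called were 29, 29, 9, 13 and 1 in the 5 comparisons, in place of 22, 27, 6, 11 and 0. The share of all tested genes called moved as well, to 38%, 33.6%, 11.9%, 10.5% and 0.395%, from 33.1%, 34.4%, 7.92%, 8.57% and 0.134%. DESeq2 gave no adjusted p for DUSP8 in the interaction.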

Other observations

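DUSP9 was the member that differed most with the knockout, and its surroundings on the X chromosome were examined after its values were seen. Of the 10 tested genes on each side in gene order, 2 of 20 were called lower and 1 higher with the knockout in DMSO by the edgeR test, with a median log2 fold change of -0.19, and 1 lower and 2 higher in JQ1, with a median of -0.00. Of all tested genes 4.44% were lower and 3.47% higher with the knockout in DMSO, and 5.56% lower and 3.01% higher in JQ1. With JQ1, 5 were lower and 6 higher in wild type, beside 16.2% and 16.9% of all tested genes, and 4 lower and 5 higher in knockout, beside 17.8% and 16.7%. The fitted changes of the neighbours with JQ1 reached from -6.87 to 0.75 in wild type and from -3.80 to 0.76 in knockout. Their medians were 0.14 and 0.31, so the fall of DUSP9 lay within their range but far below their medians. DUSP22 lies near the end of the short arm of chromosome 6, where 10 tested neighbours were counted. Of these, 0 were called with the knockout in DMSO, and 0 higher and 1 lower in JQ1, beside 3.47% of all tested genes higher in DMSO and 3.01% higher in JQ1, too few neighbours to compare with those shares.

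Of the 9 genes, 3 overlap an annotated gene on the opposite strand, which matters where the strand use of the counting is unknown. AC022217.3 at DUSP1 had at most 1 count in a library, and KRTAP5-AS1 at DUSP8 and AC007619.1 at DUSP16 had from 1 to 8. These are small beside the 342 to 568 counts of DUSP1 and the 449 to 970 of DUSP16, but not beside the 9 to 20 of DUSP8.

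DUSP8 was the least expressed of the 9 genes, yet its window of 250 bases before the start held 2 cyclic AMP response elements, at 118 and 74 bases, and DUSP1 was the only other member with that motif there. Of the 2 DUSP10 windows, 1 held 4 CCAAT boxes. These matches were looked at after the values, and no value of the series bears on binding there.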
